A study of Mus musculus with 2 samples.

Results

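Chemokine receptors are G protein-coupled receptors that steer developing T cells through the thymus, and 6 of them that thymocytes use at different stages (Ccr9, Ccr7, Ccr4, Ccr8, Cxcr3 and Cxcr4) were read in DN3 thymocytes with and without functional Miz-1. They were read through all probe sets whose annotated symbol is exactly 1 of the 6 gene names. This gave 10 of 45037 non-control probe sets, 5 of them for Ccr9 and 1 for each of the other 5 genes. RNA came from cells sorted as negative for lineage markers and CD44 and positive for CD25, the surface phenotype of DN3, the stage at which the T cell receptor beta chain is tested. The labels call 1 array Miz1 knockout and the other wild type, both on the C57BL/6 background, and the design text describes the mutant animals as Miz1-delta-POZ, an allele without the POZ domain through which this zinc finger transcription factor binds partners. The sources used here do not give the Cre driver if any, the age of the mice or the number of animals behind each array. With 1 array per genotype there is no replicate, no error between animals and no test, and every difference below is described by its size.

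A chemokine receptor works through an inhibitory G protein: ligand binding releases the G protein subunits, which activate kinases, Rac and Rap and so move the cell along the ligand gradient, until G protein-coupled receptor kinases, arrestins and RGS proteins end the signal. In the thymus, Cxcr4, the receptor for Cxcl12, keeps double negative cells in the cortex and acts with the pre-T cell receptor at beta-selection. Ccr9, the receptor for Ccl25 from thymic epithelium, is known to be raised as cells pass beta-selection and to be abundant on double positive thymocytes. Ccr7 serves the entry of progenitors and later the move of selected thymocytes into the medulla, Ccr4 also marks cells on their way to the medulla, and Ccr8 and Cxcr3 are known mainly from mature and effector T cells.

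Among the 3 receptor genes with a measured probe set, Ccr9 was the 1 past 2-fold, and upstream sequence is shown for all 3 so that the gene that differed can be set beside the others. The sequences run 5′ to 3′ and hold the 250 bases before each annotated gene start, taken from RefSeq in build GRCm38.p6. Capitals mark E-boxes, the letters CANNTG, which read the same on both strands and are bound by E proteins such as those encoded by Tcf3 and Tcf12. The Ccr9 stretch lies at chr9:123766961-123767210 on the plus strand, that of Cxcr3 at chrX:101734148-101734397 on the minus strand, and that of Cxcr4 at chr1:128592300-128592549 on the minus strand.
Ccr9: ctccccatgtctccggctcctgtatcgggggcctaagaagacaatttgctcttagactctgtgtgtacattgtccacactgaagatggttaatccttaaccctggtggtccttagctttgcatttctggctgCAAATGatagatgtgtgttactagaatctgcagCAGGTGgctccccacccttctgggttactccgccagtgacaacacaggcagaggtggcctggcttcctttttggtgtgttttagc
Cxcr3: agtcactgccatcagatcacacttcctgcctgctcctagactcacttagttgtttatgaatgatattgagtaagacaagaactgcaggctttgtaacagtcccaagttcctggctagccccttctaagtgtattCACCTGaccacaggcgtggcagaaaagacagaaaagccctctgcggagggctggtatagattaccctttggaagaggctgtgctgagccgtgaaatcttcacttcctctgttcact
Cxcr4: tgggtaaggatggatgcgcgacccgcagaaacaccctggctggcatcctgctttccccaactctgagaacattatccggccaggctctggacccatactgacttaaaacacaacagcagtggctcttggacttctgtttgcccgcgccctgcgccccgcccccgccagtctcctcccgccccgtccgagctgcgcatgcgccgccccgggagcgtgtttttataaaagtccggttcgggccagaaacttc
The Ccr9 stretch held 2 E-boxes, CAAATG and CAGGTG, starting at -118 and -85 from the gene start. The Cxcr3 stretch held 1, CACCTG at -116, and the Cxcr4 stretch held none. Of 32851 upstream stretches of this length in the table, 66.2% held at least 1 E-box, so its presence near Ccr9 was ordinary. The letters CACCC on either strand, a core of KLF sites, occurred once upstream of Ccr9 and once upstream of Cxcr4, and in 52.0% of all stretches. The letters TGTGGT on either strand, a RUNX core, occurred once upstream of Cxcr3 and in 14.0% of all stretches. GTGGGAA on either strand, the RBPJ core through which Notch acts, and GTAAACA on either strand, a FOXO core, occurred in none of these 3 and in 5.42% and 3.17% of all stretches. RefSeq upstream stretches were matched for 5 of the 6 genes, Ccr7 being the other. These are matches of letters and say nothing of binding.

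The 2 arrays had been brought to the same trimmed mean of 1000. The floor, the median of all non-control signals on both arrays, was 394, and signals under it were raised to it before log2 of knockout over wild type was taken. A probe set was called measured when the mean of its 2 signals exceeded the floor, and called lower or higher when the floored signals differed 2-fold or more, which requires a brighter signal of at least 788. Il2ra, the gene of the sort marker CD25, was above the floor on both arrays and 4.61-fold higher in the knockout (23017.9 against 4992 in wild-type cells), a call kept under all 7 alternatives, with its second probe set 3.82-fold higher. Ptcra, the pre-T alpha chain, was measured on both arrays at 11518 and 7513, and Cd44 was not measured by any of its 4 probe sets. Both probe sets of Cd4 stayed under the floor. Zbtb17, which encodes Miz-1, read 1361 against 3042 by its brighter probe set and 610 against 47.6 by the other, and where these probes lie relative to the deleted part was not analysed here. The mice differed in sex as well as in genotype, since Xist read 55300.0 in knockout cells against 423 in wild-type cells and the Y-linked Kdm5d 36.7 and 1782, so genotype and sex cannot be told apart in any difference below.

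Of the 10 receptor probe sets, 3 were at least 2-fold lower in the knockout and 0 were at least 2-fold higher. Over all non-control probe sets, 2.64% were lower and 3.97% higher by the same rule. The 3 lower ones all belong to Ccr9, and 2 of them are annotated to 1 transcript record, so they are repeated readings of 1 gene and not 3 receptors. Only 5 of the 10 probe sets were bright enough to be called at all, namely these 3 and those of Cxcr3 and Cxcr4. Among all probe sets that bright, 7.51% were lower and 11.3% higher. The plot of signals by probe set shows the knockout below the wild type for 8 of the 10, but in 4 of those 8 the knockout signal, and in 3 of them both signals, lay under the floor, where order carries no information.

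**Figure D1:**
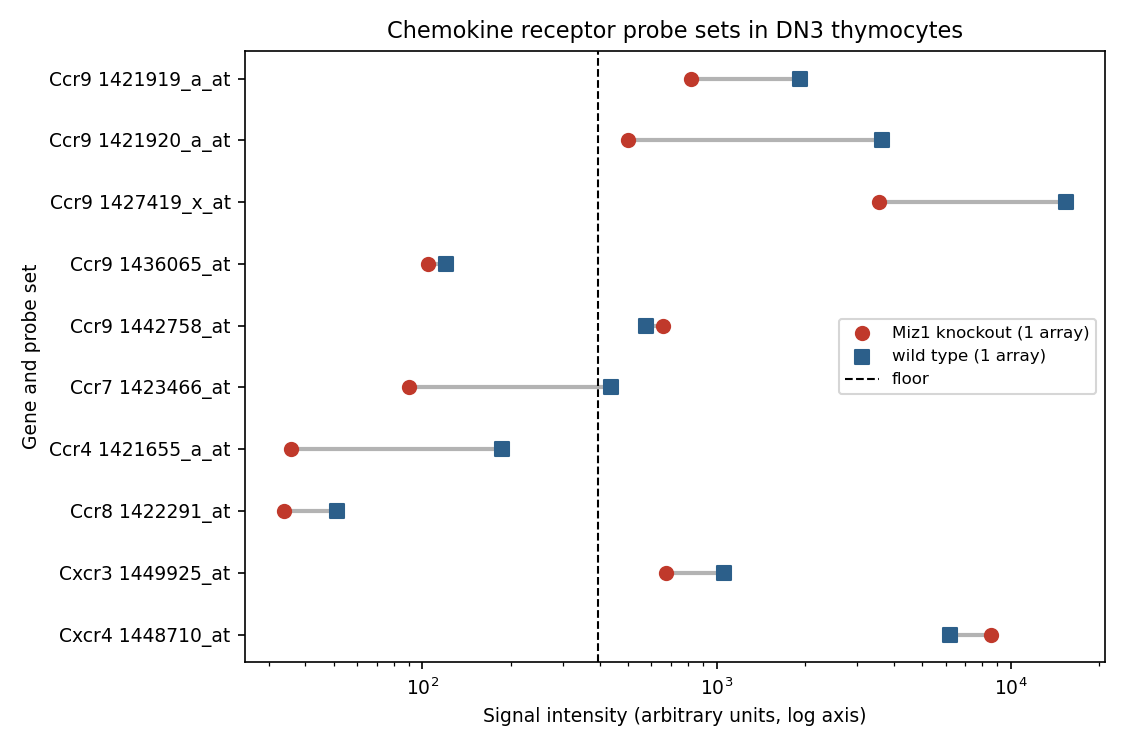
Signal intensity (arbitrary units, log axis) of each of the 10 receptor probe sets on the Miz1 knockout array (circles) and the wild-type array (squares), 1 array each, with the floor of 394 as a dashed line and a grey bar joining the 2 readings. Ccr9 probe sets 1421919_a_at, 1421920_a_at and 1427419_x_at are lower in the knockout with both signals above the floor, while Cxcr4 is slightly higher and the probe sets of Ccr4 and Ccr8 lie under the floor on both arrays.

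Ccr9 was lower in the knockout by 3 of its 5 probe sets. Probe set 1427419_x_at, its brightest, read 3554 in knockout cells and 15351 in wild-type cells, 4.32-fold lower. Its name ending marks a probe set that can cross-hybridise with other transcripts. Probe set 1421920_a_at read 500.5 against 3634, 7.26-fold lower. Probe set 1421919_a_at read 817 against 1919, 2.35-fold lower. All 6 signals lay above the floor, so these are folds and not bounds, and both _a_at probe sets lack the cross-hybridising name ending. The knockout signal of 1421920_a_at was close to the floor, however. With the floor at the 60th percentile (550) its log2 ratio became a bound, at -2.72 or lower. In RNA of a whole sorted population, fewer cells that express Ccr9 and less Ccr9 RNA per cell cannot be told apart.

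The other Ccr9 probe sets did not show the difference. Probe set 1442758_at read 659 in knockout cells and 575 in wild-type cells, a log2 ratio of 0.19, with both signals close to the floor and too dim for a call. Probe set 1436065_at read 105 and 121, under the floor on both arrays. The sources used here do not say what part of the gene or which transcript these dim probe sets detect. Across the 4 measured Ccr9 probe sets the log2 ratio had a median of -1.67 and a SD of 1.31. Probe sets of 1 gene usually lay closer together: the median SD was 0.50 over 699 genes with at least 4 measured probe sets, and 2 of these 699, Ccr9 included, had a SD at least as large as that of Ccr9. The 699 genes were not matched to Ccr9 by the size of their ratio or by signal. The sign of the Ccr9 difference rests on the 3 brighter probe sets, and its size is not settled between 2.35-fold and 7.26-fold.

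Set among all 21897 measured probe sets, the Ccr9 readings were spread from the low end to the middle. Probe set 1421920_a_at had the 8th lowest log2 ratio (-2.86) and 1427419_x_at the 28th lowest (-2.11). Probe set 1421919_a_at, at -1.23, ranked 554th from the lowest, and 1442758_at lay above 58.5% of them or level with them. The scatter of ratio against signal places the 3 lower Ccr9 probe sets outside the dense band of probe sets at their brightness or, for 1421919_a_at, at its edge.

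**Figure D2:**
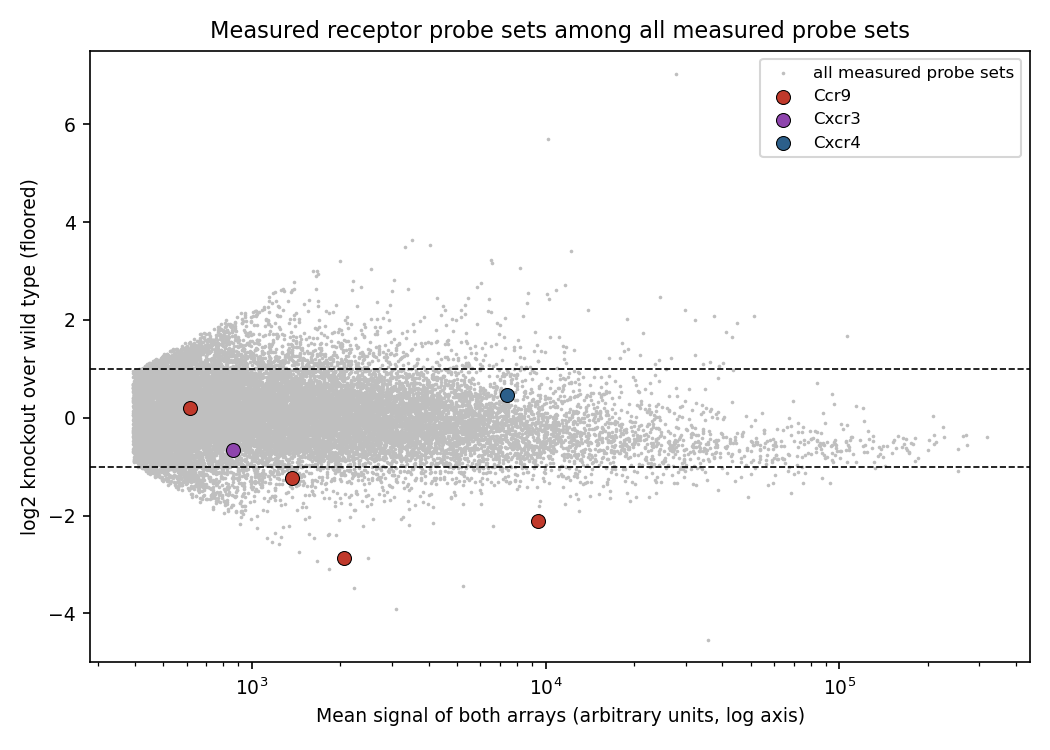
Log2 of knockout over wild type after flooring (vertical axis) against the mean signal of both arrays (arbitrary units, log axis) for all 21897 measured probe sets (grey) and the 6 measured receptor probe sets (coloured); dashed lines mark 2-fold. The 3 lower Ccr9 points lie at -1.23, -2.11 and -2.86, below the lower line, while the remaining Ccr9 point (0.19), Cxcr3 (-0.66) and Cxcr4 (0.46) lie between the lines.

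Cxcr4, the receptor that acts together with the pre-T cell receptor in DN3 cells, was not lower. Its single probe set read 8538 in knockout cells and 6221 in wild-type cells, 1.37-fold higher and short of 2-fold. The log2 ratio of 0.46 was exceeded or equalled by 27.8% of measured probe sets, so it was an ordinary value on these arrays. It stayed between 0.30 and 0.62 under 6 other ways of scaling or flooring. The ratios of Cxcr4 and of the 3 lower Ccr9 probe sets kept opposite signs under each of these.

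Cxcr3, the receptor for the interferon-induced chemokines Cxcl9, Cxcl10 and Cxcl11, read 671 in knockout cells and 1057 in wild-type cells. This was 1.58-fold lower, a log2 ratio of -0.66, with 14.7% of measured probe sets at or below it. The difference was near the pooled SD of 0.57 between probe sets of 1 gene (4514 genes). That SD describes the spread between probe sets on the same 2 arrays and holds no variation between animals. Cxcr3 lies on the X chromosome, and the arrays differ in sex.

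Ccr7, Ccr4 and Ccr8 were not measured by the floor rule, each having 1 probe set. Ccr7 read 90.2 in knockout cells and 437 in wild-type cells, so that the wild-type signal alone stood above the floor and the knockout was at least 1.11-fold lower. Ccr4 read 35.9 and 187, and Ccr8 read 34.0 and 51.1, under the floor on both arrays. No fold is given for Ccr4 and Ccr8. With a lower floor of 119, at the lower quartile of all signals, the knockout signal of Ccr7 still lay under the floor. The Ccr7 bound then moved to a log2 ratio of -1.88 or lower, so its call depends on where the floor is set. These dim readings do not show that the genes were silent in DN3 cells.

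**Figure D3:**
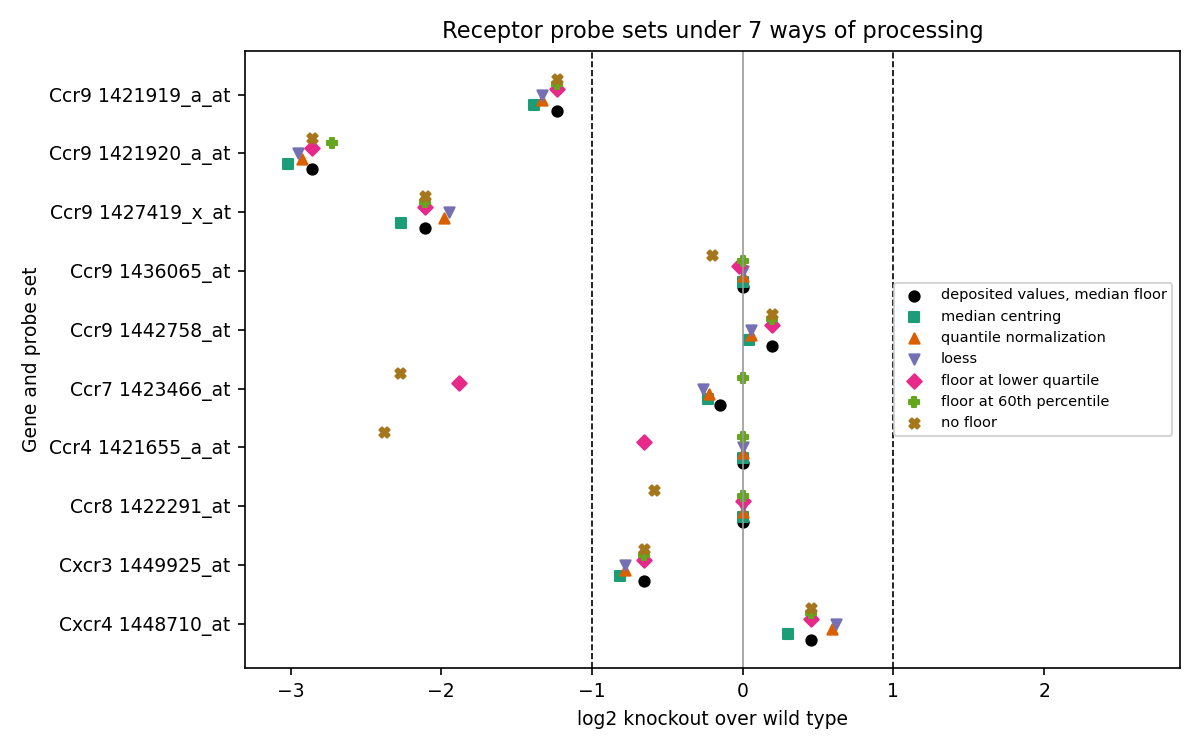
Log2 of knockout over wild type for each receptor probe set under the deposited scaling with the median floor (black) and 6 alternatives (colours), with dashed lines at 2-fold. The 3 lower Ccr9 probe sets stay beyond -1 in all 7, Cxcr3 and Cxcr4 stay inside 2-fold in all 7, and the points of Ccr7, Ccr4 and Ccr8 move when the floor is lowered or removed.

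Other chemokine receptors were mostly under the floor. Of 17 further receptor genes, 15 had a named probe set and 3 were measured. Ccr1, a receptor for inflammatory chemokines on myeloid cells, was at least 2.20-fold lower, reading 33.6 in knockout cells and 868 in wild-type cells, and the call was lost with the floor at the 60th percentile. Its second probe set was under the floor on both arrays. None of these 3 genes was at least 2-fold higher, and their median log2 ratio was -0.39. Over all 10770 measured genes, each read by its brightest probe set, 5.65% were lower and 7.23% higher, with a median of 0.00021.

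Genes for the ligands were dim. Of 13 ligand genes of the 6 receptors, 9 had a named probe set and 4 were measured, with a median log2 ratio of 0.70, 2 higher and 0 lower. The sorted cells are not the usual source of these chemokines. Ccl25, the ligand of Ccr9, read 512 in knockout cells and 370 in wild-type cells by its brighter probe set and was under the floor on both arrays by the other. Ccl8, a ligand of Ccr8, was at least 2.15-fold higher (847 against 118), a call lost with the floor at the 60th percentile. Ccl22, a ligand of Ccr4, was at least 2.03-fold higher (801 against 387), and fell short of 2-fold under median centring, quantile and loess scaling and the 60th percentile floor. Cxcl12, the ligand of Cxcr4, was under the floor by all 3 of its probe sets.

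The signalling machinery downstream of the receptors was present on both arrays and mostly differed by less than 2-fold. Of 34 genes, 32 had a named probe set and 25 were measured. By the brightest probe set of each, 1 was higher, 1 was lower and 23 were under 2-fold, with a median log2 ratio of -0.08. Some of those under 2-fold had a dimmer probe set past it. Higher ones were found for Gnaq (2.58-fold and at least 2.64-fold, its brightest being at -0.74), Gna13 (2.83-fold) and Gnai3 (at least 2.94-fold). A lower one was found for Rgs2 (2.16-fold). Gnai2, the inhibitory G protein subunit used by lymphocyte chemokine receptors, read 10312 in knockout cells and 12289 in wild-type cells, and Dock2, the Rac activator of lymphocytes, read 4875 and 3745. Rac1, a GTPase of actin movement, was 2.15-fold lower by its brightest probe set (13008 against 27912). Its second measured probe set gave a log2 ratio of -0.29 and became the brightest under quantile and loess scaling, at 0.04 and 0.05, where the call was lost. Rgs18, a member of the RGS family that ends G protein signals, was at least 2.48-fold higher (979 against 354), its second probe set read 496 against 511, and the call was lost with the 60th percentile floor.

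**Figure D4:**
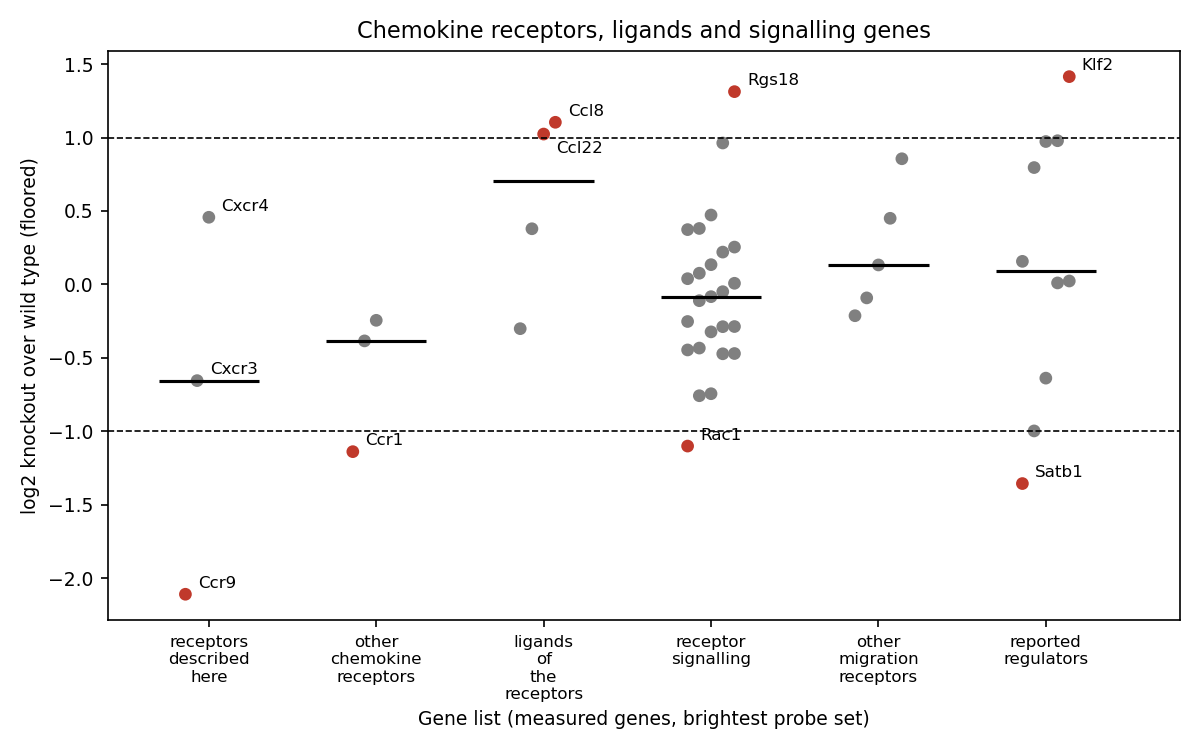
Log2 of knockout over wild type after flooring for the measured genes of each list, read by their brightest probe set; each point is a gene, black bars are list medians, dashed lines mark 2-fold, and red points are genes past it. Ccr9 at -2.11 is the lowest point of the plot, the other red points on the low side are Ccr1, Rac1 and Satb1, and those on the high side are Ccl8, Ccl22, Rgs18 and Klf2.

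Other migration receptors showed no call: of 8 genes 7 had a named probe set, 5 were measured and none differed by 2-fold, with a median of 0.13. S1pr1, the receptor with which mature thymocytes leave the thymus and a known target of Klf2, read 150 in knockout cells and 84.9 in wild-type cells, under the floor. Plxnd1, a guidance receptor of thymocytes, read 866 and 479, a log2 ratio of 0.86. Of 11 transcription regulators active in T cell precursors, some reported to act on these receptor genes, 10 were measured, 1 was higher and 1 lower, and the median log2 ratio was 0.09. Klf2, which drives homing receptors in mature T cells, was at least 2.67-fold higher (1051 against 162), a call lost with the 60th percentile floor. Satb1, a chromatin organiser of thymocytes, was 2.56-fold lower (17799 against 45586) by its brightest probe set. That call fell inside 2-fold under quantile and loess scaling, to as little as -0.96. Its other measured probe sets disagreed, at 3.14-fold lower (6210 against 19495), -0.64 and 0.01. Notch1 read 57564 against 29223 (log2 ratio 0.98, and up to 1.44 under another scaling) with its second probe set 2.35-fold higher, and Foxo1 1823 against 929 by its brightest probe set (0.97) while 2 further probe sets were higher, by 4.31-fold and by at least 3.45-fold. Tcf3 read 3048 against 4746 (-0.64) by its brightest probe set, and of 2 others 1 was at least 2.64-fold lower, by a probe set that can cross-hybridise, and 1 was at -0.36. Tcf12 read 23866 against 23708 (0.01). Runx1 read 11445 against 6595 (0.80) by its brightest probe set. Another Runx1 probe set was 2.29-fold higher (8086 against 3531), and the rest ranged from -0.92 to 0.76. Id3, the inhibitor of E proteins, read 1779 against 3555, just short of 2-fold, which it passed under median centring, quantile and loess scaling.

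The nearest genes to Ccr9 in their pair of readings were found among 18193 named genes by the Euclidean distance between floored log2 signals on the 2 arrays, each gene read by its brightest probe set. With only 2 arrays this measures a level and a ratio and nothing more. They were Cdca8, a chromosomal passenger protein of dividing cells (3825 against 15141, distance 0.11), Nme1, a nucleoside diphosphate kinase (4236 against 14757, distance 0.26) and Dut, a dUTP-hydrolysing enzyme (4496 against 14682, distance 0.35).

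On chromosome 9 Ccr9 neighbours other chemokine receptor genes, and its 5 protein-coding neighbours on each side in the RefSeq order were read as well, a comparison added after the values were seen. Of these 10 genes 6 were measured, 1 was lower and 0 were higher, and their median log2 ratio was -0.49. Ccr1 was the lower one. Lztfl1 and Fyco1, the genes directly beside Ccr9, had log2 ratios of -0.54 and 0.17. Cxcr6 and Xcr1, the receptors next along, were not measured.

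Genes that mark other cells also differed between the arrays, and their part in the Ccr9 difference was not tested. Of 11 markers of double positive thymocytes, the cells in which Ccr9 is abundant, 8 had a named probe set and 6 were measured. None of the 6 was at least 2-fold lower. The 1 higher gene, Cd53, at 5.43-fold, is known to be low on double positive cells and so does not mark them. The summed signal of the brightest probe sets of the 8 was 185124 in knockout cells and 206360 in wild-type cells. Most of it came from Dntt (113525 against 137490) and Rag1 (34741 against 45865), which DN3 cells also express, so the sum does not measure double positive cells. The defining coreceptor gene Cd4 was under the floor on both arrays. Cd8b1 read 36.8 in knockout cells and 679 in wild-type cells, at least 1.72-fold lower and not measured. Cd8a was measured and read 541 against 497 by its brightest probe set, which can cross-hybridise. Another Cd8a probe set read 477 against 493, and an unmeasured one 134 against 430. The DN3 sort marker Il2ra was 4.61-fold higher in the knockout. Cd28, which rises at beta-selection as Ccr9 does, was 3.08-fold lower (1499 against 4616), while Cd27, which also rises then, was 2.63-fold higher (3157 against 1199).

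Of 14 myeloid markers 6 were measured, of which 4 were higher on the knockout array and 1, Cebpb, was lower, with summed signals of 12143 and 6184. The higher ones were Lyz1 (8.19-fold, by a probe set that can cross-hybridise), Lyz2 (3.59-fold), Ctss (at least 2.40-fold) and Csf1r (2.28-fold), while Itgam stayed under the floor. The Lyz1 and Csf1r calls were lost without _s_at and _x_at probe sets, and the Ctss call with the 60th percentile floor. For Csf1r the brightest probe set left in that setting read 826 against 799. A further Csf1r probe set without those endings read 1017 against 107, at least 2.58-fold higher. Of 10 dendritic cell markers 2 were measured and none was called, with sums of 2383 and 4110. NK and innate lymphoid markers, whose cells carry Cxcr3, had 7 of 11 named genes measured, 2 higher (Nkg7 2.40-fold and Xcl1 at least 2.07-fold) and 0 lower. The list median was 0.85, with Klrd1 (-0.79), Gzma (-0.50) and Il2rb (-0.47) negative. The sums were 23395 and 24591, and most of both came from Gzma (13881 against 19641). The Xcl1 call was lost under median centring, quantile and loess scaling and the 60th percentile floor. Of 8 measured mature T cell markers, Klf2 and Ctla4 (2.13-fold, a call lost under median centring) were higher and none was lower. The list median was nevertheless -0.53, with Cd6 (-0.79), Itgae (-0.72), Cd5 (-0.60), Itgb7 (-0.59) and Icos (-0.47) negative. A second Itgae probe set was 2.34-fold lower. The sums were 20375 and 13691, of which Il7r (9300 against 5065) was the largest part. A second, dimmer Il7r probe set was 2.72-fold higher (2832 against 1042). Of 6 measured B cell markers 2 were lower and 0 higher, with sums of 17682 and 33177. The lower ones were Ighm (2.49-fold, a call lost under loess scaling) and Cd22 (at least 2.02-fold, lost with the 60th percentile floor). The second Cd22 probe set read 404 against 144. The other 4 genes had positive log2 ratios short of 2-fold (Cd79b 0.90, Cd79a 0.78, Ms4a1 0.54 and Blk 0.21), and the list median was 0.37. Most of both sums came from Ighm (11340 against 28208). Of 6 measured gamma-delta T cell markers Maf was 2.44-fold higher and none was lower, with sums of 13032 and 12378. The list was split, with Cd163l1 (0.67) and Blk (0.21) positive and Id3 (-0.998), Il17a (-0.40) and Sox13 (-0.14) negative, and a median of 0.035. Of 11 thymic stromal markers 4 were measured and 7 were not. Krt8, Foxn1, Psmb11, Col3a1 and Pecam1 were under the floor on both arrays. Pdgfrb read 8455 against 1840 and was higher, while Epcam (0.93), Col1a1 (0.69) and Krt5 (-0.19) were short of 2-fold. The sums were 16091 and 6801, and most of both came from Pdgfrb and Epcam (4947 against 2604).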

How the data were processed

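Total RNA was extracted with TRIzol, amplified and biotin-labelled by in vitro transcription, and hybridised to 1 oligonucleotide array per genotype, per the labels' protocols. The deposited table holds linear signal intensities, 1 per probe set and array. GCOS 1.4 is named in the submitters' processing notes, with settings not given in the sources used here. Both arrays had a mean of 1000 after trimming 2% at each end, which shows a common scale. Detection calls and scanner files were not analysed here, and the number of arrays limits the precision.

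Of 45101 probe sets, 64 controls were left out. Of the rest, 34945 have 1 gene symbol in the platform annotation, 932 have several and were not named, and 9160 were not listed. Symbols were updated by gene identifier from RefSeq (GRCm38.p6). Every receptor probe set was read separately, and other genes by the probe set with the highest mean signal. Loess used a span of 0.3 (statsmodels 0.14.6, numpy 2.4.6, Python 3.11.15). The calling step was tested on simulated data with known folds.

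The text names all receptor probe sets, list members past 2-fold (at most the 3 highest and 3 lowest of each list), the 3 genes nearest to Ccr9, and Il2ra, Ptcra, Notch1, Klf2, Foxo1 and Ccl25. Other list members given as examples were picked with their values in view. The receptors and lists were chosen with earlier results of these data known. Alternatives were median centring, quantile and loess scaling, floors at the lower quartile and 60th percentile, no floor, exclusion of _s_at and _x_at probe sets, and the mean of a gene's measured probe sets.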

Additional observations from a re-analysis of the deposited data

How the results depend on the processing

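The 3 lower Ccr9 probe sets stayed at least 2-fold lower under all 6 scaling and floor alternatives, from -1.39 to -1.23, -3.02 to -2.72 and -2.27 to -1.95 on the log2 scale for 1421919_a_at, 1421920_a_at and 1427419_x_at. The -2.72 was a bound, given by the 60th percentile floor. As a mean over its 4 measured probe sets Ccr9 was at -1.50. Median centring moved the median of measured probe sets by -0.16 and changed the higher share of all probe set calls from 60.1% to 41.9%, and of gene calls from 56.2% to 37.9%. Without a floor 5 receptor probe sets were lower (17.3% of all probe sets were, by the same rule), because Ccr7 (-2.28) and Ccr4 (-2.38) joined, and Ccr8 stood at -0.59. With the lower quartile floor Ccr7 was at -1.88 and Ccr4 at -0.66, both bounds because the knockout signals lay under that floor too. With that floor, which lets dimmer genes be called, 3 other receptors were lower and 2 higher. Of the ligands 1 was lower and 5 higher, and 6 signalling genes were higher. Over all measured genes at that floor, 13.9% were lower and 16.7% higher. With the 60th percentile floor 0 other receptors were lower, 0 ligands higher and 0 signalling genes higher. The shares over all measured genes were then 4.76% lower and 5.55% higher. Under median centring, quantile and loess scaling 1 ligand was higher, as were 5.25%, 6.24% and 6.32% of all measured genes. Under quantile and loess scaling 0 signalling genes were lower, against 6.42% and 6.36% of all measured genes. Without a floor 2 signalling genes were higher, against 9.89% of all measured genes. The causes were not tested beyond these settings. No paired analysis was possible because there is 1 array per genotype and no test, and no replicate could be left out. Signals near background limit all statements on Ccr7, Ccr4 and Ccr8.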
